A study of Mus musculus with 36 samples.

Results

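Some stretches of chromatin were more accessible early than late while mouse cardiac fibroblasts were being turned into cardiomyocyte-like cells. At the late days they were near the level of control fibroblasts. These were 766 of 184025 regions, 0.416%, out of 1393120 regions in the deposited table. They were selected on the measured values themselves. Accessibility was at least 1 log2 unit higher at days 2 and 3 of reprogramming than in control fibroblasts, at least 1 log2 unit higher than at days 14 and 21, and at days 14 and 21 it lay within 0.5 log2 units of the fibroblasts. The values are L = log2(CPM + 0.5), where CPM scales each count to a library sum of 1000000 over the 184025 regions. Those are the regions with a summed count of at least 90 over the 18 libraries, without the 5 highest. Because of the 0.5 added, L understates the change of a region with few reads.

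The assay was ATAC-seq: a transposase cuts and tags DNA that is free of nucleosomes. Thy1+/GFP- cells, for the most part fibroblasts, were sorted from cultured explants of neonatal hearts of strain Cd-1 carrying alpha-MHC-GFP, a green reporter driven by a cardiac myosin promoter. One group of 3 libraries, the fibroblasts below, had received a dsRed retrovirus, no inhibitor, and was sorted for dsRed at day 7. The 5 reprogrammed groups of 3 libraries each had received retroviral Gata4, Mef2c and Tbx5 together with sb431542, which blocks TGF-beta receptors, and xav939, which dampens Wnt signalling, and were sorted for alpha-MHC-GFP+ cells at days 2, 3, 7, 14 and 21. A difference from the fibroblasts thus reflects the factors, both inhibitors and the sorting gate at once and, at days other than 7, time in culture as well, and cells at successive days are different cells that had passed the reporter gate. Per the labels, each condition had 3 biological replicates, and they name 2 sequencing cores without assigning libraries to them, so a core effect cannot be told apart.

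Closed chromatin is wrapped around nucleosomes and is cut little, whereas promoters and enhancers in use are cut often. Pioneer factors can bind nucleosomal DNA and open it, and Gata4 belongs to a family known for this. In cells that change identity, part of the newly opened chromatin is known to close again. Regions are given by their position in build mm9 as deposited. No genome or annotation of that build was used here, so sequences, motifs, genes and cell type markers were not analysed here, and whether a region lies in a promoter, exon or intron is not given.

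Library totals ran from 2.29 to 23.2 M counts, and the highest region, on chromosome 1, held 4.52 to 49.4% of these. Day 2 replicate 1 and day 3 replicate 1 stood apart from the other libraries of their groups. Chi-square per degree of freedom against those was 2.28 to 2.73 for the first and 3.22 to 3.8 for the second, where the other pair of each group gave 1.68 and 2.02. They were also the shallowest of the 6 early libraries, with 1.48 and 1.79 M counts over the 184025 regions. One of these 2 libraries was the highest early library at 562 of the 766 regions. The matching share over all regions was not taken, so how far this is particular to the members is not known. Without both, the median day 2 to 3 excess over fibroblasts at the same 766 regions was 1.16 log2 units, and that over days 14 and 21 was 1.04. Both stayed at 0.5 or more at 761 regions and at 1 or more at 377. The rule applied without them chose 485 regions, of which 377 were among the 766. By the same chi-square, day 14 replicate 3 gave 2.16 to 2.75 against the others of its group, whose own pair gave 1.9. Replicate 3 of day 7 gave 2.1 to 2.42 against 1.76, and that of day 21 gave 2.05 to 2.41 against 1.77. These later libraries were left out only 1 at a time. In fibroblast replicate 3 and day 14 replicate 3 depth was the limit: 117 and 118 of the 766 regions had no read, and the median count was 2 and 3. A count of 0 in those libraries allows up to 2.05 and 1.39 CPM, the level of 3 reads, and such limits cover counting error only.

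The rise and the return that chose the regions were as follows. The median level over the 766 regions was 0.95 log2 units in fibroblasts, 2.49 at day 2, 2.21 at day 3, 1.48 at day 7, 1.05 at day 14 and 1.16 at day 21. Over all 184025 regions it stayed between 1.05, at day 7, and 1.35, in fibroblasts. The median difference of days 2 and 3 from fibroblasts was 1.36 and that from days 14 and 21 was 1.2, against -0.07 and -0.01 over all regions. In bulk libraries a higher count from more cells open at a region and one from more cuts per cell cannot be told apart.

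**Figure D1:**
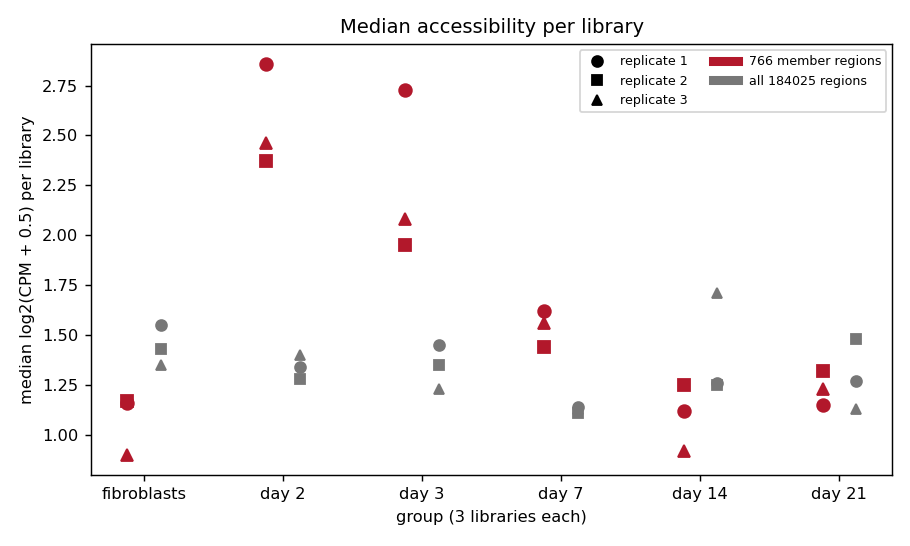
Median L = log2(CPM + 0.5) in each of the 18 libraries (y axis) by group (x axis), over the 766 regions (red) and over all 184025 regions (grey), with a marker shape per replicate number. The 6 early libraries sit between 1.95 and 2.86 and the 3 day 7 libraries between 1.44 and 1.62, above the fibroblast and late libraries at 0.90 to 1.32; the red early, fibroblast and late levels were used to choose the regions.

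By library, the median over the 766 regions was 2.86, 2.37 and 2.46 in the 3 libraries of day 2 and 2.73, 1.95 and 2.08 in those of day 3. It was 1.16, 1.17 and 0.90 in fibroblasts, 1.12, 1.25 and 0.92 at day 14 and 1.15, 1.32 and 1.23 at day 21. No early library overlapped the fibroblast or late ones, which the choice of regions fixes. Region by region, all 6 early libraries lay above all 3 fibroblast and all 6 late libraries at 299 of the 766, where 0.831% of all regions had this order. In edgeR's quasi-likelihood test 588 of 726 testable members passed at an adjusted p under 0.05 as higher at days 2 and 3 than in fibroblasts (14.8% of all 144810 regions tested), and 612 as lower at days 14 and 21 than at days 2 and 3 (3.66%). These contrasts chose the members and nothing is read from the counts, which were 332 in place of 588 without fibroblast replicate 1. The other 40 members had too few reads to be tested, with a mean of at most 1.77 CPM.

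Most members rose over fibroblasts by under 1.5 log2 units, and 219 by at least that. Both differences were under 1.2 log2 units at 154 members, at least 1.5 at 71 and at least 2 at 6, and the largest were 2.76 over fibroblasts and 2.61 over days 14 and 21. At the edge of the rule, the regions at chr14:66708101-66710728 and chr15:35199162-35200164 were included with day 2 to 3 excesses over days 14 and 21 of 1.0008 and 1.0009. Those at chr13:110656604-110658545 and chr12:52859541-52861637 were left out with 0.9994 each. Membership is thus a cut through a continuous range of values.

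**Figure D2:**
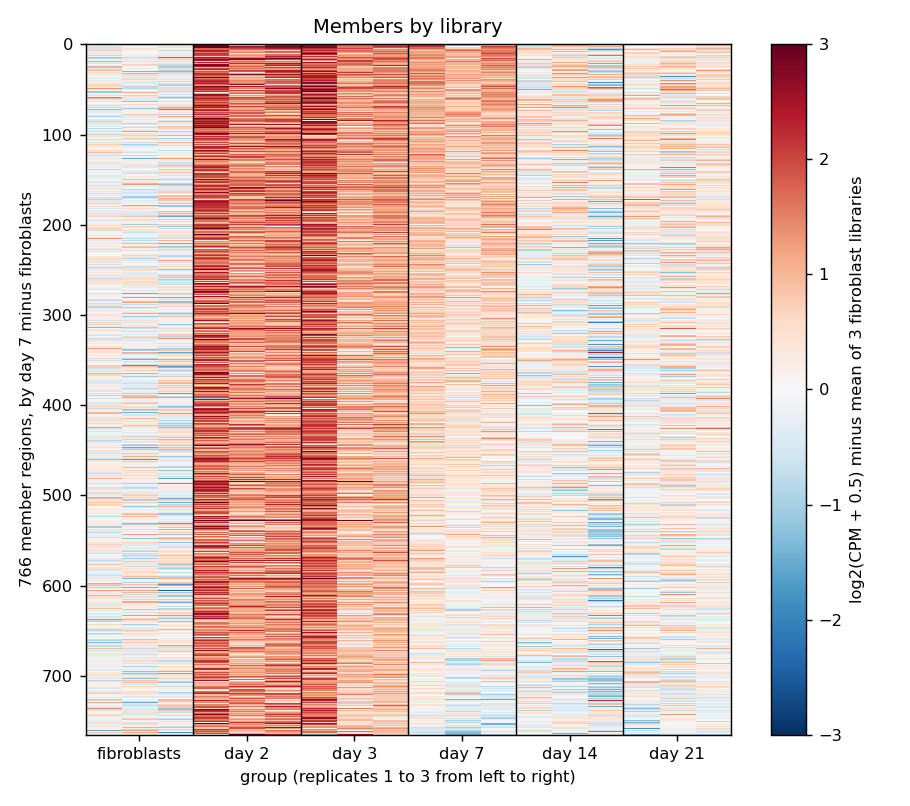
L of each library minus the mean of the 3 fibroblast libraries (colour, log2 units, cut at -3 and 3) for the 766 regions (rows, ordered by day 7 minus fibroblasts) and 18 libraries (columns, replicates 1 to 3 within each group). The early columns are red for nearly all rows, most deeply in replicate 1 of days 2 and 3, the day 7 columns run from red at the top to pale blue at the bottom, and the day 14 and 21 columns are pale, with blue streaks in day 14 replicate 3, where 118 regions had no read.

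The same measures were then read in libraries whose levels did not enter the thresholds. For this, the thresholds were applied to 2 of the 3 replicate numbers and the levels were read in the remaining one. The 184025 regions stayed the same, so the held-out libraries still counted in the filter on summed counts over all 18. Regions chosen on replicates 2 and 3 (512) had, in replicate 1, a median excess of days 2 and 3 over fibroblasts of 1.19 log2 units, against -0.14 over all regions. The 1530 regions chosen without replicate 2 had 0.80 there, against -0.10 over all regions, and the 1319 chosen without replicate 3 had 0.99, against 0.05. All 3 held-out readings were above those of all regions. Among the regions chosen, 284 of the 512, 516 of the 1530 and 469 of the 1319 were also members. The held-out readings are thus not readings of the members alone.

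The return was smaller in the 3 held-out readings than at the members. The median excess of days 2 and 3 over days 14 and 21 was 1.05, 0.47 and 0.65 in held-out replicates 1, 2 and 3, against 0.10, -0.02 and -0.04 over all regions. Days 14 and 21 lay 0.15, 0.32 and 0.32 above fibroblasts, against -0.18, -0.06 and 0.09 over all regions. The mean of days 2 and 3 was above both fibroblasts and days 14 and 21, with day 7 not compared, at 81.2, 71.1 and 75.5% of the chosen regions (35.0, 25.5 and 27.6% of all regions). Both differences reached 1 log2 unit at 43.6, 10.2 and 17.5% of them, against 5.28, 0.802 and 1.44% of all regions. Replicate 1, which gave the largest held-out values, includes both early libraries that stood apart, and their part in this was not tested. With 1 library per group there is no test of these values.

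**Figure D3:**
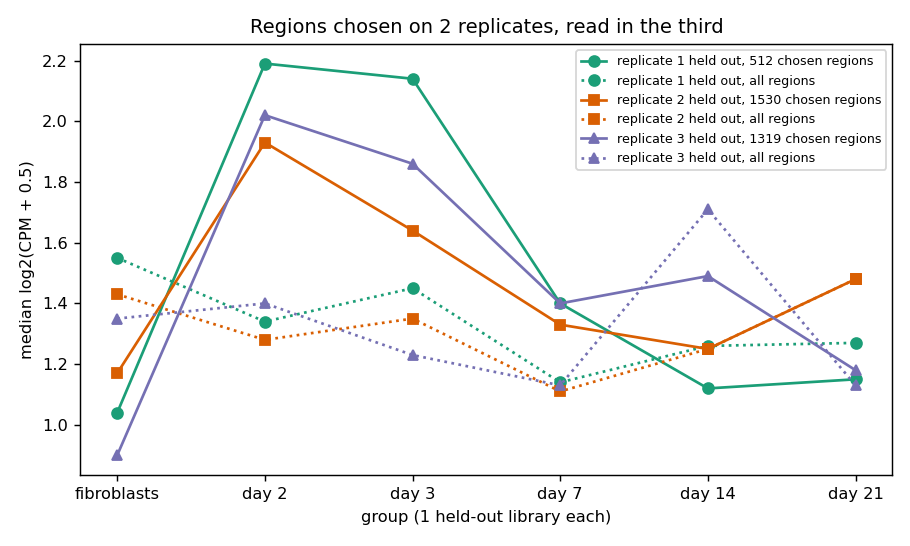
Median L (y axis) by group (x axis) in the replicate left out of the thresholds (it still counted in the filter on summed counts), for the chosen regions (solid) and all 184025 regions (dotted), with 1 library per point. The solid lines rise above the dotted ones at days 2 and 3 for all 3 held-out replicates, by the most with replicate 1 held out, and lie at 1.12 to 1.49 at days 14 and 21, where the dotted ones lie at 1.13 to 1.71.

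Day 7 was not part of the rule, and it lay in between. Its level was below that of days 2 and 3 at 764 members, above fibroblasts at 700 and above days 14 and 21 at 679. The median member kept a share of 0.39 of its early rise at day 7 (quartiles 0.2 and 0.543). The share was over 0.5 at 263 members, under it at 503, below 0 at 66 and at or above 1 at 2. The median of day 7 minus fibroblasts was 0.54 log2 units at the members against -0.18 over all regions, and in the held-out readings it was 0.47, 0.30 and 0.50 against -0.25, -0.19 and -0.10. These comparisons share the fibroblast, early or late libraries with the rule, which chose those to be low, high and low, so a day 7 value in between follows in part from the choice.

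Against fibroblasts, 179 of 726 tested members passed edgeR's test as higher at day 7 and 0 as lower. The background was 15.5% of all regions tested that passed as higher (22511 regions), and 39820 regions passed in either direction. The 3 day 7 libraries lay above all 3 fibroblast libraries at 192 of the 766 members, where 15.3% of all regions had this order. The count of 179 became 103 with DESeq2, 48 without fibroblast replicate 1 and 110 without fibroblast replicate 2.

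Against days 2 and 3, 22 tested members had fallen by day 7 and 0 had risen, where 0.087% of all regions tested passed as lower. In either direction 488 of all regions tested passed, and 126 of them were lower, so most had risen. The 3 day 7 libraries lay below all 6 early libraries at 278 of the 766 members, and 4.28% of all regions had that order. Of the 22, 20 were not called above fibroblasts at day 7 and 2 were. The count was 4 with DESeq2. The regions at chr1:39585495-39586499 and chr13:21427774-21429078, both among the 22, had no adjusted p in DESeq2, so it could not call them. With the 2 early libraries that stood apart left out the count was 37, and 19 of the 22 were called in that fit as well. It was 3, 4 and 14 without day 7 replicates 2, 3 and 1, 6 and 14 without day 2 replicates 3 and 2, and 14 without day 21 replicate 3.

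Between day 7 and days 14 and 21, 4 members passed as lower and 0 as higher, against 0.0124% of all regions tested that passed as lower. Those were all 18 regions that passed in either direction. The 4 members had all been above fibroblasts at day 7 in the same fit, and none was among the 22. Since the rule holds days 14 and 21 within 0.5 log2 units of fibroblasts, such a fall largely places day 7 above fibroblasts. Both steps also share the day 7 libraries, where a high level favours a call after day 7 and works against one before it. Neither observation is therefore a separate result. With the 2 early libraries that stood apart left out the count was 37, which held the same 4, and with DESeq2 it was 2. The regions at chr12:17009526-17010742 and chr12:17013480-17014561, both among the 4, had no adjusted p in DESeq2, so it could not call them. The count was 0 with library totals in place of TMM scaling and when day 7 replicate 1 was left out. It was 1 without day 7 replicate 3, any 1 of the 3 day 14 libraries, or day 21 replicate 2 or 3. Without fibroblast replicate 1 or 2 or day 21 replicate 1 it was 2, and leaving out day 2 replicate 1, day 3 replicate 1 or day 7 replicate 2 gave 8, 12 or 7.

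**Figure D4:**
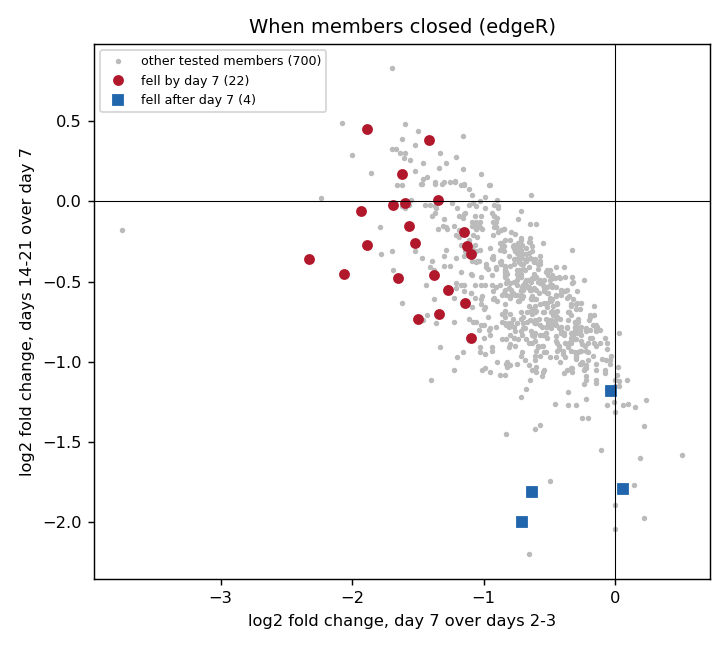
edgeR log2 fold change of day 7 over days 2 and 3 (x axis) against that of days 14 and 21 over day 7 (y axis) for the 726 tested members, 1 point each. The 22 called for a fall by day 7 (red circles) lie to the left, at -1.10 or below, and the 4 called for a fall after day 7 (blue squares) lie at -1.18 or below on the y axis; both axes share the day 7 libraries, so points tend to fall along a descending line.

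The steepest early opening lay on chromosome 13. The region at chr13:83794019-83795345 (1326 bases) had 7.45, 6.56 and 6.15 CPM in fibroblasts. It had 64.3, 83.2 and 54.2 CPM at day 2 and 41.4, 60.8 and 17.1 CPM at day 3. It then had 11.2, 7.17 and 7.82 CPM at day 7, with means of 7.97 ± 1.59 (SD, n = 3) at day 14 and 7.11 ± 0.856 (SD, n = 3) at day 21. The early libraries did not overlap any other, and all 3 day 7 libraries were already near the fibroblast level. By edgeR the log2 fold change of day 7 over days 2 and 3 was -2.33 (SE 0.29, adjusted p = 4.86e-07), and it passed in 24 of 24 alternatives.

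The next region upstream followed the same course. The region at chr13:83790862-83792767 had 13.4 ± 2.34 CPM in fibroblasts, 113.0 ± 41.7 at day 2 and 66.9 ± 34.3 at day 3 (SD, n = 3 each). At day 7 it had 23.0, 14.3 and 16.6 CPM, and its log2 fold change over days 2 and 3 was -2.06 (SE 0.31, adjusted p = 0.000147 by edgeR). Its day 7 libraries lay below all 6 early ones, of which the lowest was 34.5 CPM in day 3 replicate 3.

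Both belong to a stretch of 20 regions at chr13:83730819-83802523, of which 9 rose at days 2 and 3 by at least 1 log2 unit and 7 by at least 2. Both counts include these 2 members, whose rise of at least 1 the rule fixed. A further 5 regions of the stretch opened and closed more steeply but are not in the set, since they stayed over 0.5 log2 units above fibroblasts at days 14 and 21. The region at chr13:83800334-83802523, for example, had mean values of 4.06 CPM in fibroblasts, 218.0 at day 2, 127.0 at day 3, 22.2 at day 7 and 10.2 at day 21. The other 11 regions of the stretch, among them chr13:83742641-83744555 with 47.9 CPM in fibroblasts and 41.8 at day 2, rose by less than 1 log2 unit or fell. From general knowledge, and not from an annotation used here, this part of chromosome 13 holds Mef2c, one of the delivered factors. Reads of delivered retroviral sequence and of the chromosome were not told apart, and their part in these 2 members was not tested. Without the 2, the count of falls by day 7 is 20.

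Away from that stretch, 1 of the 8 members named for their rise and return was called for a fall by day 7, and it lay on chromosome 1. The region at chr1:39585495-39586499 had 1.39, 3.06 and 2.05 CPM in fibroblasts. It had 14.9, 10.6 and 11.1 CPM at day 2 and 16.2, 7.08 and 9.31 CPM at day 3. The day 7 libraries had 5.02, 2.20 and 2.30 CPM, all below the 6 early ones, and 1 of them was above the fibroblasts. The log2 fold change of day 7 over days 2 and 3 was -1.50 (SE 0.30, adjusted p = 0.00697 by edgeR), and it missed the threshold without day 7 replicate 2 (0.129) or 3 (0.111).

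The third largest called fall, at chr13:21427774-21429078, rested on few reads. It had 1.04, 0.0 and 2.05 CPM in fibroblasts, 2.03, 7.28 and 7.13 at day 2 and 9.50, 2.80 and 2.13 at day 3. At day 7 it had 1.39, 1.29 and 0.460 CPM. The day 7 libraries were below the early ones, while 1 fibroblast and 1 late library overlapped them. Its log2 fold change was -1.93 (SE 0.45, adjusted p = 0.0329 by edgeR), lost in 5 of 23 alternatives, with adjusted p from 0.00738 to 0.249.

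Other members were still open at day 7. The densest group lay on chromosome 12, where 6 members fell within chr12:16999002-17014561, a stretch of 14 regions. The region at chr12:17009526-17010742 had 5.02, 2.62 and 2.05 CPM in fibroblasts. It had 29.8, 16.2 and 21.8 CPM at day 2, 24.6, 10.3 and 12.5 at day 3 and 10.7, 4.96 and 11.8 at day 7. It fell to 1.67, 4.31 and 1.85 CPM at day 14 and 3.06, 3.42 and 1.76 at day 21. Day 7 overlapped day 3 and lay above all 6 late libraries. The log2 fold change of days 14 and 21 over day 7 was -2.0 (SE 0.29, adjusted p = 0.000459 by edgeR), while that of day 7 over days 2 and 3 was -0.71 (SE 0.26, adjusted p = 0.251). The late fall missed the threshold with library totals alone (0.0905) and without day 7 replicate 1 (0.0691).

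At the far end of the stretch, chr12:17013480-17014561 followed the same course. It had 1.44 ± 0.811 CPM in fibroblasts, 10.4 ± 2.88 at day 2, 5.48 ± 1.46 at day 3, 4.31 ± 2.49 at day 7, 1.35 ± 0.490 at day 14 and 1.43 ± 0.489 at day 21 (SD, n = 3 each). Days 14 and 21 were lower than day 7 by edgeR (log2 fold change -1.81, SE 0.36, adjusted p = 0.0347), a call lost in 10 of 23 alternatives, with adjusted p from 0.00163 to 0.511. Between them, the short region at chr12:17011151-17011369 had 8.12, 4.95 and 6.42 CPM at day 2, against 0.173, 0.437 and 0.683 in fibroblasts. Its day 7 libraries disagreed, with 3.74, 0.367 and 3.22 CPM, and its fall after day 7 missed the threshold (edgeR log2 fold change -2.20, SE 0.47, adjusted p = 0.0632). The first member of the stretch, chr12:16999002-16999320, was low throughout, with 2.93 ± 2.20 CPM at day 2 and 4.0 ± 0.990 at day 3 (SD, n = 3 each).

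The members on chromosome 12 lay among regions that opened in the same days and were open later too. Of the 14 regions of the stretch, 11 rose at days 2 and 3 by at least 1 log2 unit. That count includes the 6 members, whose rise the rule fixed. Another 3 of the 11 belonged to the class that opened early and was kept (at least 1 log2 unit above fibroblasts at days 14 and 21 also). One of them, chr12:17001008-17002138, had mean values of 3.10 CPM in fibroblasts, 22.2 at day 2, 16.9 at day 7 and 9.82 at day 21. A wide region inside the stretch, chr12:17004606-17007880, was already open in fibroblasts at 88.5 CPM and had 127.0 at day 2 and 91.4 at day 21. Transient, kept and standing accessibility occurred within the same 15559 bases.

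**Figure D5:**
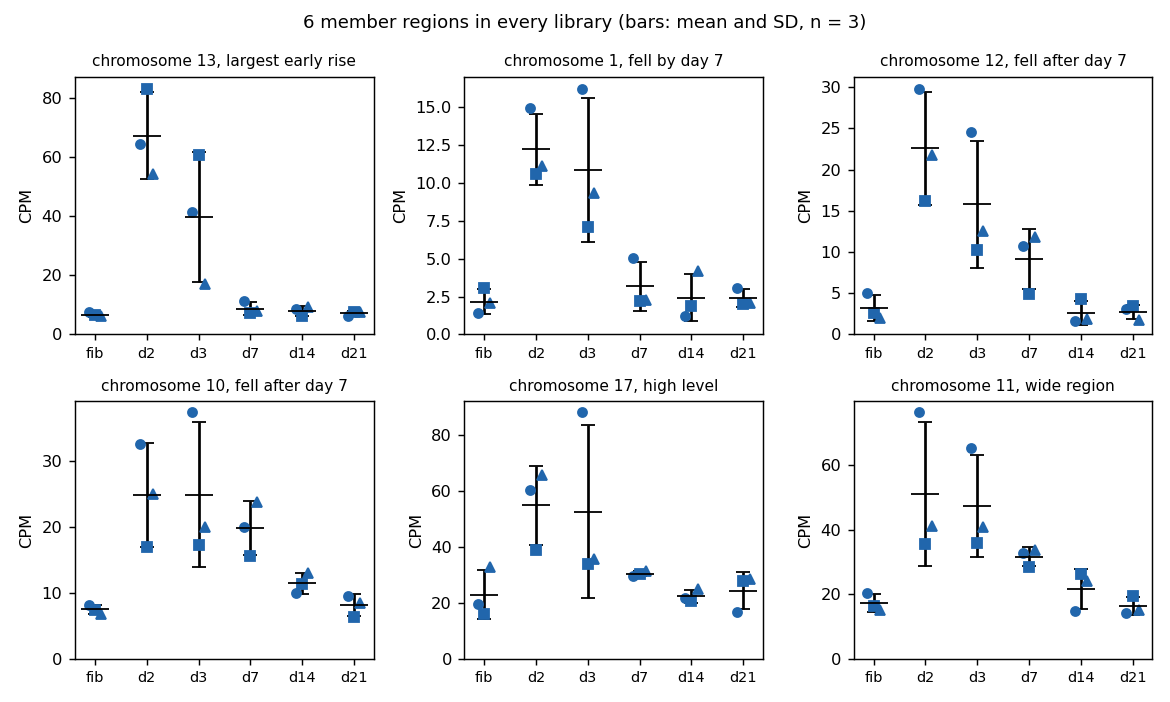
CPM (y axis, linear from 0) in each library of 6 members by group (x axis, fib for fibroblasts and d2 to d21 for the days), with circles, squares and triangles for replicates 1, 2 and 3 and bars for the mean and SD (n = 3). The chromosome 13 and chromosome 1 regions are back near the fibroblast level at day 7, whereas the regions of chromosomes 12 and 10 fall after it, and replicate 1 is the highest point at day 3 in 5 of the 6 panels.

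Beyond chromosome 12, the other 2 members called for a fall after day 7 were singled out after their values were seen. The region at chr10:56256333-56259016 had 8.14, 7.44 and 6.83 CPM in fibroblasts, 32.5, 16.9 and 25.0 at day 2 and 37.4, 17.3 and 19.9 at day 3. At day 7 it still had 20.0, 15.6 and 23.8 CPM, which overlapped both early days, and it then had 11.4 ± 1.53 at day 14 and 8.09 ± 1.68 at day 21 (SD, n = 3 each). Its log2 fold change of days 14 and 21 over day 7 was -1.18 (SE 0.23, adjusted p = 0.0326 by edgeR), lost in 10 of 24 alternatives. At chr17:14047314-14048692 the early level was 6.26 ± 0.895 CPM at day 2 and 6.42 ± 0.730 at day 3 (SD, n = 3 each), and day 7 had 5.87, 1.84 and 8.74 CPM. Fibroblasts there had 2.94, 0.437 and 6.15 CPM, so 1 of them overlapped the early libraries, and the late fall (edgeR log2 fold change -1.79, SE 0.36, adjusted p = 0.037) was lost in 11 of 23 alternatives.

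The 3 members with the highest day 7 level relative to days 2 and 3 were close to their early level at day 7. The region at chr10:116458072-116458523 had 4.70, 3.67 and 1.99 CPM at day 7, against 4.74, 2.75 and 1.78 at day 2. At chr11:79476857-79477875 day 7 had 2.67, 2.57 and 2.30 CPM and day 3 had 3.35, 3.36 and 2.13. At chr10:86155252-86158127 the early libraries spread from 3.57 to 26.8 CPM, with the 2 highest values, 15.6 and 26.8, in the libraries that stood apart, and day 7 had 7.48, 5.33 and 13.2. None of the 3 passed the test in either direction against days 2 and 3 (adjusted p 0.609, 0.929 and 0.888 by edgeR). All 3 were higher at day 7 than in fibroblasts (log2 fold changes 1.91, 1.58 and 1.58, adjusted p 0.00611, 0.0335 and 0.0371 by edgeR). They were picked for a high day 7 level among members chosen for low fibroblasts, so both outcomes follow in part from the choice.

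A pair of regions on chromosome 11 completed the 8 with the largest rise and return among members whose early libraries all exceeded the fibroblast and late ones. The one at chr11:20375319-20376011 had 1.29 ± 0.823 CPM in fibroblasts, 8.47 ± 2.38 at day 2, 8.10 ± 4.10 at day 3 and 3.37 ± 1.99 at day 7 (SD, n = 3 each). The one at chr11:29096700-29097835 had 0.838 ± 0.419 in fibroblasts, 7.51 ± 1.15 at day 2, 5.72 ± 4.24 at day 3 and 2.13 ± 0.921 at day 7 (SD, n = 3 each). Neither step down passed alone in either region (adjusted p 0.108 or more by edgeR), and the second was above fibroblasts at day 7 (log2 fold change 1.73, SE 0.61, adjusted p = 0.0283).

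The members with the highest levels and the widest peaks were read next. After the 2 regions on chromosome 13, the highest early level was at chr17:3418784-3420525, with 60.2, 39.0 and 65.6 CPM at day 2, 88.3, 33.9 and 35.8 at day 3 and 29.5, 30.3 and 31.4 at day 7. Fibroblasts had 19.6, 16.2 and 32.8 CPM there, and the highest of these was only just below the lowest early library. The widest member, chr15:98406829-98414392 (7563 bases), had 21.6 ± 2.03 CPM in fibroblasts, 54.0 ± 14.1 at day 2, 41.3 ± 10.2 at day 3 and 29.7 ± 1.91 at day 7 (SD, n = 3 each).

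The next widest, chr11:40487469-40494537 (7068 bases), had 20.3, 16.2 and 15 CPM in fibroblasts and 76.5, 35.6 and 41.0 at day 2. It had 65.4, 35.8 and 40.7 CPM at day 3, 32.9, 28.3 and 33.6 at day 7 and 16.3 ± 2.75 (SD, n = 3) at day 21. Its day 7 libraries lay between the early and the fibroblast ones without overlap, and it was above fibroblasts at day 7 (edgeR log2 fold change 1.11, SE 0.30, adjusted p = 0.00354). The region at chr1:107416534-107422727 (6193 bases) had 7.35 ± 1.74 CPM in fibroblasts, 19.8 ± 3.19 at day 2 and 9.94 ± 1.29 at day 7 (SD, n = 3 each), and neither of its steps at day 7 passed the test.

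No member separated day 3 from day 2, yet most were lower at day 3. The rule used the mean of the 2 days, not their difference. Day 3 was below day 2 at 570 of the 766 members (48.3% of all regions) and at 546 of the 726 tested by edgeR, with a median log2 fold change of -0.22 against 0.01 over all regions tested. The sign of the median was the same with each of the 3 scalings, at -0.25 with RLE factors and -0.32 with library totals, where all regions moved by -0.10, and with the 2 early libraries that stood apart left out it was -0.29. Another measure, the median difference in L, was 0.04, -0.24 and -0.21 in held-out replicates 1, 2 and 3. It was read over the regions chosen without that replicate, with 1 library per day.

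By edgeR 0 members passed in either direction between days 2 and 3, and so did 0% of all regions, also with DESeq2. At an unadjusted p under 0.05, 58 members were lower and 0 higher, where 1.89% of all regions tested were lower and 1.73% higher. Days 2 and 3 differ in depth, and the log2(CPM + 0.5) scale treats shallow and deep libraries unequally, so this split is not fully independent of the choice of members.

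Between days 14 and 21 members moved little. By edgeR 0 passed in either direction, as did 0% of all regions, and DESeq2 also called 0. At an unadjusted p under 0.05, 28 members were higher at day 21 (1.5% of all regions tested) and 10 lower (1.79%). The median log2 fold change was 0.09, against 0.00 over all regions tested, with 429 members up and 297 down. The all-region level of day 14 replicate 3 was the highest of the 18 libraries at 1.71 while its members were at 0.92, and its part in the split was not tested.

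In width and level, which the rule did not use directly, the median member was narrower than the median region and had a higher level. The widths overlapped widely, with quartiles of 996 and 1847 bases over all regions. Their median width was 1159 bases (quartiles 801 and 1605), against 1346 over all regions, 1414 over the 15632 that opened early and were kept, and 1332 over the 481 with the mirror course, which closed early and recovered. Regions of 500 bases or less made up 8.75% of members and 3.73% of all regions. The median of the mean CPM over 18 libraries was 2.89 for members, 1.99 for all regions, 4.64 for kept and 1.78 for mirror regions. The early level enters that mean, so it is not independent of the choice.

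The kept regions had median levels of 2.50 log2 units at day 2 and 2.56 at day 3, and the members 2.49 and 2.21. At day 7 they were at 2.40, where the members were at 1.48. The mirror regions had a median of 1.57 in fibroblasts, 0.19 at day 2, 0.95 at day 7 and 1.54 at day 14. At day 7 the mirror regions, like the members, lay between their early and late levels. The classes are defined by the values at the other times, so these levels describe them and were not tested.

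Members were spread over the 9 chromosomes of the table, with 0.314% of the regions read on chromosome 15 and 0.538% on chromosome 17, the highest. Most stood alone. With members no more than 20 kb apart joined, 674 were single, 74 formed 37 pairs and 18 lay in 4 stretches of 3 to 6. The nearest of the regions read was another member for 23 members (3.0%), where a member was the nearest region for 0.422% of all regions.

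After chromosome 12, the stretch with most members was at chr1:34271090-34298386, with 5 among 13 regions. Its first member, chr1:34271090-34273539, had 2.25, 1.75 and 2.05 CPM in fibroblasts, 10.2, 8.93 and 6.78 at day 2, 6.71, 3.92 and 5.05 at day 3 and 5.02, 3.49 and 4.29 at day 7. Its last, chr1:34297057-34298386, had 5.14 ± 1.71 in fibroblasts, 12.8 ± 1.23 at day 2 and 10.2 ± 1.37 at day 7 (SD, n = 3 each). Both were above fibroblasts at day 7 (log2 fold changes 1.30, SE 0.42, adjusted p = 0.0136, and 1.31, SE 0.33, adjusted p = 0.00177, by edgeR), and neither passed for a fall before or after day 7. Between them chr1:34292820-34295193 was open throughout, at 48.6 CPM in fibroblasts, 41.6 at day 2 and 45 at day 21.

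On chromosome 14, 4 of the 6 regions in chr14:47732849-47746056 were members. The first, chr14:47732849-47733679, had 3.64, 0.437 and 0.683 CPM in fibroblasts, 6.77, 4.40 and 10.3 at day 2 and 4.06, 1.29 and 4.90 at day 7. The last, chr14:47744758-47746056, had 5.24 ± 2.77 CPM at day 2 and 2.68 ± 0.565 at day 7 against 1.56 ± 0.801 in fibroblasts (SD, n = 3 each). Neither passed the test for day 7 against any other group. One of the other 2 regions, chr14:47734231-47736722, was the strongest of the stretch and missed the rule narrowly, with 16 CPM in fibroblasts, 33.8 at day 2, 28.5 at day 3 and 15.1 at day 21.

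The nearest regions outside the set shared the early rise in part. Those lying within 10 kb of their member numbered 745, with a region shared by several members counted once. Their median excess at days 2 and 3 was 0.29 log2 units over fibroblasts and 0.18 over days 14 and 21, against -0.07 and -0.01 over all regions. The mean of days 2 and 3 was above both fibroblasts and days 14 and 21 at 339 of the 745 neighbours, 45.5%, against 28.2% of all regions. Day 7 was not compared in this. The rise was at least 1 log2 unit at 166 of them, 22.3% against 12.7%, and 97 were of the kept class. These neighbours are read in the same libraries as the members, so they are not independent of them.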

How the data were processed

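ATAC-seq counts were read in 18 libraries, 6 groups of 3 by the labels. The deposited table holds the authors' whole-number read counts per region, not normalized. Bowtie2, Picard, MACS2 and edgeR and build mm9 are named, per the submitters' processing notes. How these were set, how duplicates and cut-site offsets were handled, and if libraries were pooled for peak calling is not given in the sources used here. An incomplete last line of the table as held was left out, and the remaining regions lie on chromosomes 1, 10 to 16 and part of 17. The other 18 of 36 labelled samples have no column and were not analysed here.

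Members were chosen as the report says, and the members and lists were chosen with earlier results of these data known. All 18 libraries entered 1 edgeR quasi-likelihood fit (edgeR 4.0.16, R 4.3.3, TMM scaling, robust, 12 residual degrees of freedom) of the 144810 regions kept by filterByExpr (minimum count 10, minimum total 15). Tests were two-sided with Benjamini-Hochberg adjustment over all of them at 0.05. The biological coefficient of variation was 23.8%. DESeq2 1.42.0 was an alternative. Simulated counts with known changes were used to check this fit. Of simulated 2-fold changes, 6% were called for day 7 against fibroblasts and 24% for day 7 against days 2 and 3. The share was 24% for days 14 and 21 against day 7, 10% for day 3 against day 2 and 12% for day 21 against day 14. At 4-fold it was 78 to 96%, so a 2-fold change of a single region would mostly be missed.

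Named regions have a mean of at least 0.5 CPM and are the 8 with the largest smaller of both differences among members whose 6 early libraries exceed all fibroblast and late ones, the 3 highest early levels, the 3 widest, the 3 largest called falls by day 7, the 3 highest day 7 levels relative to days 2 and 3, the ends of the 3 fullest stretches, and the 4 regions at the threshold. Replicate libraries of a group differed beyond the noise of sampling (1.3 to 3.8 chi-square units for each degree of freedom) and were counted separately.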

Additional observations from a re-analysis of the deposited data

Results flagged for a closer look

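In edgeR's test of the difference between times, 22 members were lower at day 7 than at days 2 and 3, and 4 were lower at days 14 and 21 than at day 7, with no member in both sets. Passing at 1 step and not at the other does not show that the steps differ, and the difference between them was not tested.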

How the results depend on the processing

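The number of members followed the settings. It was 398 with CPM on the sums of the whole table, 1074 and 425 with pseudocounts of 0.25 and 1, 485 when the libraries that stand apart were left out, 71 and 6 with thresholds of 1.5 and 2, and 515 to 1062 with 1 library left out at a time. With TMM scaling and with DESeq2-type (RLE) factors it was 558 and 552, of which 506 and 542 were among the 766; of the 398, 253 were.

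Members higher at day 7 than in fibroblasts were 103 with DESeq2 and 48 to 213 with 1 library left out. Falls by day 7 were 4 with DESeq2, 37 without the libraries that stand apart and 3 to 31 with 1 left out. Falls after day 7 were 0 with library totals alone, 2 with DESeq2, 37 without the libraries that stand apart and 0 to 12 with 1 left out. In both kinds of fall, DESeq2 gave some members no adjusted p, and these count as not called. For the contrasts that chose the members the counts were 332 to 601 and 508 to 614 with 1 left out. Library totals alone moved the median of all regions by 0.30 (day 7 over fibroblasts), 0.56 (days 2 and 3 over fibroblasts), -0.29 (day 7 over days 2 and 3) and 0.27 (days 14 and 21 over day 7) log2 units. The cause was not tested.

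With a replicate block, which treats equal numbers as pairs, the counts were 182, 22 and 4 for day 7, 586 and 615 for the contrasts that chose the members and 0 between days 2 and 3 and between days 14 and 21. Same-numbered libraries mostly did not deviate together (correlation of deviations from group means -0.157 to 0.321 over 45 pairs, over 0.1 in 2, and 8 of 18 libraries best with their own number), so the numbers were not taken as pairing the libraries. The 2 pairs were replicates 1 (0.321) and replicates 2 (0.214) of days 2 and 3. The 2 early libraries that stood apart thus deviated together. Day 2 replicate 2 and day 3 replicate 3, of unlike number, gave 0.22. The held-out rise in replicate 1 was 0.97 in place of 1.19 with TMM scaling. Around members with both differences of 1.5 or more, 54.9% of neighbours, in place of 45.5%, had days 2 and 3 above both fibroblasts and days 14 and 21. No named region changed direction in 721 comparisons. Many of these left out a library outside the contrast, which hardly moves its fold change. The members were also chosen on their early and late levels, so the direction was in part fixed in advance. In the shallowest libraries 1 read was worth up to 0.683 CPM, so small differences of single members were not detectable there.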
